A study of Mus musculus with 12 samples.

Results

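The receptors described here are 7 G protein-coupled receptors through which hormones, nerves and nutrients adjust hormone release from islets: Glp1r, Gipr, Gcgr, Ffar1, Adra2a, Galr1 and Chrm3. They were chosen by gene symbol under a rule that uses no measured value, with earlier results of these data known, and all 7 were found among 23339 gene rows. RNA came from pancreatic islets of Langerhans of C57BL/6 mice, in 6 libraries of the genotype miR-17-92/106 KO and 6 of the genotype miR-17-92/106 Control. The series title gives the deleted microRNA clusters as miR-17-92 and miR-106b, and both groups share strain and tissue. The labels used here give no age, sex, Cre driver or treatment and do not say whether each library is a separate animal, so p-values measure the spread between libraries, which may be technical.

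These receptors differ in the G protein they engage. The GLP-1 receptor (Glp1r), the GIP receptor (Gipr) and the glucagon receptor (Gcgr) couple to Gs, which raises cAMP and potentiates glucose-stimulated insulin release. The fatty acid receptor Ffar1 (GPR40) and the muscarinic receptor Chrm3 act mainly through Gq and phospholipase C, which also favour insulin release, while the adrenergic receptor Adra2a and the galanin receptor Galr1 couple to Gi/o proteins and restrain it. MicroRNAs lower the output of transcripts whose 3′ untranslated regions pair with their seed, bases 2 to 8 of the mature strand.

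Sequences of microRNAs encoded by the deleted clusters are shown because their seeds define the sites searched below. Whether each mature strand was lost from the islets was not tested. The 9 mature strands come from RefSeq (GRCm38.p6), with the seed in capitals, from chromosome 14 for miR-17-92 and chromosome 5 for miR-106b. They are a chosen strand of each microRNA gene, and the opposite strands were not searched.
mmu-miR-17-5p: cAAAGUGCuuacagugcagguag
mmu-miR-20a-5p: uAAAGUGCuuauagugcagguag
mmu-miR-106b-5p: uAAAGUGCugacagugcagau
mmu-miR-93-5p: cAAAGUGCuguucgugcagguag
mmu-miR-18a-5p: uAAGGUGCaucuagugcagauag
mmu-miR-19a-3p: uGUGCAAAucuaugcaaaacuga
mmu-miR-19b-3p: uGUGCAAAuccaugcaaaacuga
mmu-miR-92a-3p: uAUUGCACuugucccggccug
mmu-miR-25-3p: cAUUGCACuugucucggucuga
The first 4 share one seed, as do miR-19a with miR-19b and miR-92a with miR-25, and miR-18a has a seed of its own.

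Seed matches were present in 5 of the 7 receptors. In the longest annotated 3′ UTR of each gene (GENCODE M21), the sense strand was searched for the complement of seed bases 2 to 8 and for the complement of bases 2 to 7 followed by A. The motifs were GCACTTT and CACTTTA for miR-17, 20a, 106b and 93, GCACCTT and CACCTTA for miR-18a, TTTGCAC and TTGCACA for miR-19a and 19b, and GTGCAAT and TGCAATA for miR-92a and 25. Motif pairs share bases, and a match of bases 2 to 8 followed by A was counted as 1 site. In all, 6 matches were found, of which none matched miR-19 and none was of the longer kind with both features. The matches of Glp1r (chromosome 17), Ffar1 (chromosome 7), Chrm3 (chromosome 13) and Adra2a (chromosome 19) are shown with the match in capitals and T for U.
Glp1r: caccatacctgaCACCTTAttttg
Ffar1: tggctcacagtaGCACCTTtaaca
Chrm3: tccagccacctgGCACCTTttgaa
Adra2a: gccccagtaactCACTTTAgaact
The Glp1r, Ffar1 and Chrm3 matches are for miR-18a, starting 3082, 2733 and 1202 bases after the stop codon, and that of Adra2a is for the miR-17 group, starting at 864 bases.

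Galr1 was the 1 receptor with matches to more than one seed, CACTTTA of the miR-17 group at 1033 bases and TGCAATA of miR-92a and miR-25 at 1178 bases after the stop codon. Gipr and Gcgr had 0 matches in UTRs of 1307 and 287 bases. A match to any of the 4 seeds was held by 42.0% of the 18882 3′ UTRs searched. It was held by 87.0% of UTRs of a length like that of Glp1r (4359 bases), by 78.6% of those like Ffar1 (3178 bases), by 58.0% of those like Chrm3 (1743 bases) and by 50.5% of those like Adra2a (1370 bases), where like length means that the shorter UTR is over 80% of the longer. Among UTRs like those of Galr1, Gipr and Gcgr the shares were 49.5%, 49.4% and 11.4%. The motifs of the miR-17 group alone were in 19.3% of all UTRs and 21.6% of those like Adra2a, and the miR-18a motifs were in 12.96% of all and 34.1% of those like Glp1r. A match of these letters is a description and does not show that a site is used.

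**Figure D1:**
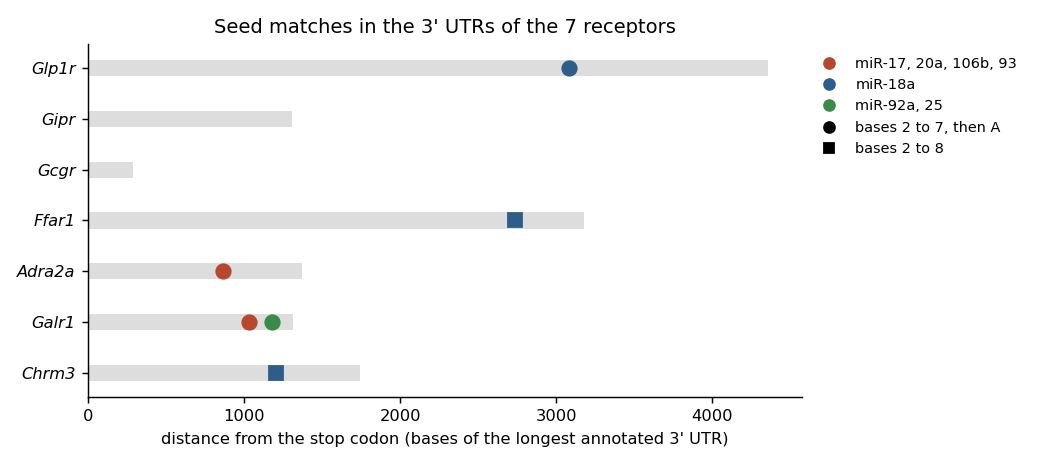
Seed matches, in the 7 receptors, of microRNAs encoded by the deleted clusters. Each grey bar is the longest annotated 3′ UTR, with distance from the stop codon in bases on the x axis; a point's colour gives the microRNA group and its shape the kind of match. Glp1r, with the longest UTR of 4359 bases, holds 1 match, and Gipr and Gcgr hold 0.

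Total counts ran from 2643481 to 4969024 in KO and from 2706672 to 5101830 in control libraries. Ins1 and Ins2 took 48.6% to 62.6% of counts in KO and 57.4% to 64.0% in control libraries, so the tissue label held. The beta cell list of 12 markers includes Ins1 and Ins2, and none of its genes was at 0 over all libraries together. All 35 listed acinar genes were in the table, and none was at 0 over all libraries. They took 14.02% and 11.1% of counts in KO replicates 5 and 6 and 5.70% in control replicate 1, against 1.38% to 2.39% in the other KO and 1.18% to 2.64% in the other control libraries. Other marker lists also differed in range between the groups. Delta cell markers took 0.193% to 0.292% of counts in KO and 0.251% to 0.367% in control libraries. Endothelial markers took 0.0142% to 0.0197% in KO and 0.0187% to 0.0239% in control libraries. Ductal markers reached 0.0462% in KO and 0.0210% in control libraries, and immune markers 0.0364% and 0.0154%. Erythroid markers took 0.0126% to 0.0294% in KO and 0.0066% to 0.0159% in control libraries. Schwann and neuronal markers, whose ranges did not overlap, took 0.0015% to 0.0018% in KO and 0.0020% to 0.0025% in control libraries. That is 1 list among several, at a very low share of counts, and its difference was not tested. Of these lists, Prg4 (delta), Cdh19 and Gfap (Schwann) and Hba-a1 and Hba-a2 (erythroid) were at 0 in all libraries, and the part of these cells in the receptor values was not tested. In bulk islet RNA, fewer cells of a type and less RNA per cell cannot be told apart. Values below are CPM, the library's count of a gene scaled to a common TMM-adjusted total, and tests are edgeR's quasi-likelihood test with Benjamini-Hochberg adjustment over all 9664 genes tested.

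Of the 7 receptors, 5 passed the expression filter and 0 passed an adjusted p of 0.05 (edgeR), where 0.124% of all tested genes did (0.0724% higher and 0.0517% lower in KO). None had an unadjusted p under 0.05 in edgeR or in DESeq2, a threshold that 7.91% of tested genes met in edgeR, and the KO and control ranges overlapped for all 5, whereas 0.579% of tested genes had ranges that did not overlap. DESeq2 called 0 of the 5. The largest differences were 0.17 higher for Adra2a and 0.17 lower for Galr1 on the log2 scale, neither of which passed the test. The median log2 fold change over the 5 was -0.03, with 2 above 0 and 3 below, against 0.0036 over all tested genes. The plot of CPM by library shows the overlap for each receptor.

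**Figure D2:**
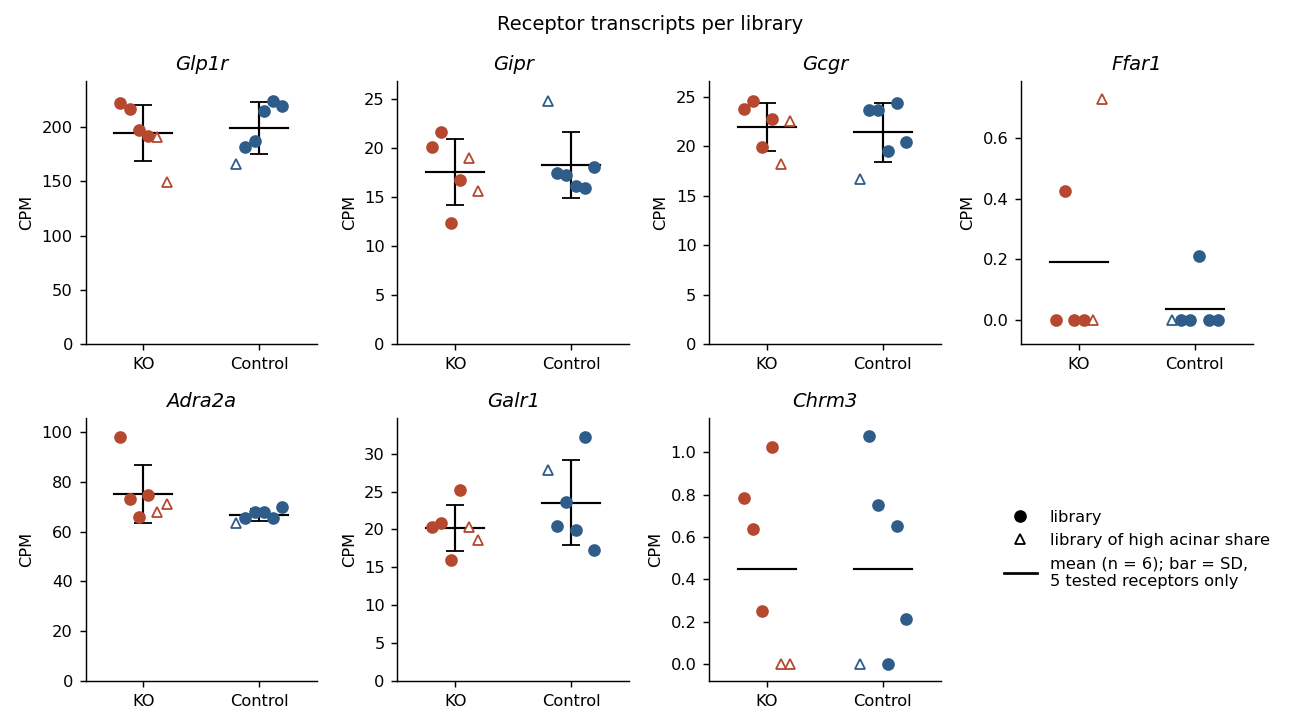
CPM of the 7 receptors in each library, KO left and control right. Filled circles and open triangles are libraries, the triangles being the 3 of high acinar share; lines are means of 6 libraries and bars the SD, drawn for the 5 tested receptors. Groups overlap in every panel, and KO replicate 1 stands at 97.9 CPM for Adra2a, where the other KO libraries reach 74.8 CPM.

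Among the Gs-coupled receptors, Glp1r is the receptor for the gut incretin GLP-1 and the target of GLP-1 analogues used in diabetes. It ranged from 150 to 222 CPM in KO islets with a median of 195, and from 166 to 225 CPM in control islets with a median of 201. The groups overlapped almost fully, and the lowest library of each was one of high acinar share, KO replicate 6 and control replicate 1. KO islets averaged 195 ± 25.7 CPM of Glp1r against 199 ± 24.1 CPM in controls (SD, n = 6 each). On the log2 scale the fold change was -0.03 ± 0.10 (SE), with an adjusted p of 0.976 (edgeR). The 95% interval of the fold was 0.849 to 1.13. With the acinar gene level as a covariate the log2 fold change was 0.03 ± 0.08, and without the 3 libraries of high acinar share it was 0.0090 ± 0.08. Leaving out KO replicate 6 or control replicate 5 alone gave 0.0323 and 0.0049, so its sign depended on single libraries.

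Gipr binds GIP, the incretin of the upper gut. It lay between 12.4 and 21.7 CPM in KO islets (median 17.9) and between 15.9 and 24.9 CPM in control islets (median 17.3). Control replicate 1 was the highest of all 12 libraries at 24.9 CPM, while the other controls reached at most 18.1 CPM. For Gipr edgeR gave a log2 fold change of -0.04 ± 0.14 (SE) and an adjusted p of 0.979, with a 95% interval of the fold from 0.803 to 1.18. Its sign turned when control replicate 1 (0.0518) or KO replicate 3 (0.0512) was left out, and without all 3 libraries of high acinar share it was 0.07 ± 0.14.

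Gcgr, the receptor for the alpha cell hormone glucagon, responds in beta cells to glucagon from neighbouring cells. It ranged from 18.2 to 24.6 CPM in KO islets (median 22.7) and from 16.7 to 24.4 CPM in control islets (median 22.1). The lowest library of each group was one of high acinar share, KO replicate 5 and control replicate 1. KO replicate 6, also of high acinar share, was at 22.6 CPM, above the KO mean of 21.98 CPM. The KO to control difference of Gcgr was 0.05 ± 0.11 on the log2 scale (SE), at an adjusted p of 0.952 in edgeR, and the 95% interval of the fold ran from 0.890 to 1.21. Without control replicate 1 it was 0.0015. Its ligand gene Gcg averaged 5738 ± 558 CPM in KO islets against 7636 ± 2634 CPM in controls (SD, n = 6 each), with a log2 fold change of -0.41 ± 0.16 and an adjusted p of 0.518 (edgeR). The alpha cell marker list took 0.591% to 0.796% of counts in KO and 0.601% to 1.28% in control libraries, highest in control replicate 1. This list includes Gcg itself, so its share is not separate from the Gcg values. The part of alpha cells in the Gcgr and Gcg values was not tested.

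Among the Gi/o-coupled receptors, Adra2a mediates the suppression of insulin release by noradrenaline and adrenaline. It ranged from 65.9 to 97.9 CPM in KO islets with a median of 72.2, and from 63.5 to 69.8 CPM in control islets with a median of 66.6. Of the 6 KO libraries, 4 lay above the highest control and 2 lay inside the control range, and 5 lay above the control mean. KO islets averaged 75.1 ± 11.6 CPM of Adra2a and controls 66.6 ± 2.31 CPM (SD, n = 6 each). In edgeR the difference was 0.17 ± 0.09 on the log2 scale, with an unadjusted p of 0.0509 and an adjusted p of 0.636, at rank 772 by p among the 9664 tested genes. Its 95% interval, -0.0007 to 0.35 on the log2 scale, reaches a fold of 1.27.

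The spread of Adra2a was unequal between the groups. Its coefficient of variation was 15.5% in KO islets and 3.46% in controls. Counting error alone at the mean control count would give 6.31%, and 1.78% of 450 genes of like level (the lower mean over 80% of the higher) had a lower value in controls. KO replicate 1, at 97.9 CPM, stood apart from the other KO libraries, at 65.9 to 74.8 CPM. The larger spread in KO islets thus rested largely on this library. Without it the log2 fold change was 0.08 (adjusted p = 0.842, edgeR). Without the 3 libraries of high acinar share it was 0.21 ± 0.09 (adjusted p = 0.529). The unadjusted p passed under 0.05 in 5 of 9 other settings and in 3 of 12 fits that left out 1 library, and the adjusted p lay between 0.495 and 0.942 over all of them. The authors' deposited table gives Adra2a a log2 fold change of 0.17 with an unadjusted p of 0.0597 (DESeq2).

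Galr1 binds galanin, a peptide of islet nerve endings that inhibits insulin release. It ranged from 15.9 to 25.2 CPM in KO islets (median 20.3) and from 17.3 to 32.2 CPM in control islets (median 22.05). The 2 highest libraries were control replicate 5 at 32.2 CPM and control replicate 1 at 27.9 CPM, and 5 of 6 KO values were under the mean of the controls. Galr1 averaged 20.2 ± 3.05 CPM in KO islets against 23.6 ± 5.57 CPM in controls (SD, n = 6 each), which is -0.17 ± 0.14 on the log2 scale (SE) with an adjusted p of 0.807 in edgeR. The 95% interval of the fold ran from 0.729 to 1.077. Without control replicate 5 the log2 fold change was -0.07, without KO replicate 4 it was -0.26, and without the 3 libraries of high acinar share it was -0.09 ± 0.14. In the control libraries its coefficient of variation of 23.6% exceeded that of 96.2% of 1351 genes of like level. Among control libraries the spread of Galr1 was thus high for its level, whereas that of Adra2a was low.

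The Gq-coupled receptors were at the edge of detection. Ffar1, the receptor for long-chain fatty acids on beta cells, had 4 counts in all KO libraries together and 1 in the controls. KO replicates 2 and 6 held 2 counts each, control replicate 4 held 1, and the other 9 libraries held 0. Chrm3, which transmits the vagal signal of acetylcholine, had 12 counts in KO and 10 in control libraries, with 0 to 5 per library in each group. A count of 0 allows up to 0.615 CPM at the highest and 1.27 CPM at the lowest effective depth (3 counts, counting error only).

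Neither gene could be compared with useful precision. Ratios of KO to control were taken from counts summed over the libraries of each group and scaled by summed effective depth. They are therefore not ratios of the mean CPM given below. The Ffar1 ratio was 4.01 with a 95% interval of 0.397 to 197 (exact, counting error only). That of Chrm3 was 1.202 with an interval of 0.476 to 3.11. Mean levels were 0.19 CPM in KO islets against 0.035 CPM in controls for Ffar1 (two-sided exact permutation p = 0.455), and 0.45 CPM in both groups for Chrm3 (p = 1 by the same permutation test). No source used here names the gene models behind the counts, so a low count is a statement about these rows and not about the receptor in the cells. Without KO replicate 6 the Ffar1 difference was 0.04996 CPM, against 0.157 CPM with all 12 libraries. In the authors' deposited table the log2 fold change of Ffar1 is 2.15 with an unadjusted p of 0.311 (DESeq2).

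Between receptors, levels were compared as CPM per kb of merged exon length (GENCODE M21), since longer transcripts collect more reads. Over all 12 libraries Glp1r was highest at 33.9 CPM per kb, followed by Adra2a at 14.7, Gcgr at 8.28, Galr1 at 7.33, Gipr at 5.16, Chrm3 at 0.072 and Ffar1 at 0.027. Glp1r lay above Adra2a, Adra2a above Gcgr, and Gipr above Chrm3 with no overlap of their library ranges. The neighbours Gcgr and Galr1, Galr1 and Gipr, and Chrm3 and Ffar1 overlapped, although Galr1 was above Gipr within each of the 12 libraries. By this measure Glp1r lay above 94.0% of the 9137 tested genes with a length, Adra2a above 86.4%, and Gipr above 66.0%. A longer annotated model than the one counted would lower a value, so the order holds for these models only.

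Most close relatives of the 7 receptors had few or no counts. The fixed list of relatives held 27 names, 26 of them in the table, of which 6 passed the filter and 7 had 0 counts in all libraries. Adra2a, at 14.7 CPM per kb, stood above the other adrenergic receptors named here: Adra1a, Adra1b, Adra1d and Adra2c had 1 or 2 counts over 12 libraries, Adra2b and Adrb3 had 0, and Adrb1 was at 0.051 CPM per kb. The short-chain fatty acid receptors gave the opposite picture within the free fatty acid family. Ffar2 was at 16.2 CPM per kb and Ffar3 at 7.70, against 0.027 for Ffar1, and Ffar4, another receptor for long-chain fatty acids, was at 2.66. Among the class B relatives Vipr1, a receptor for VIP and PACAP, was at 3.62 CPM per kb. Gpr119, a lipid receptor of class A that raises cAMP, was at 2.13. Galr3 was at 2.25 CPM per kb and Galr2 had 0 counts. Chrm4, which couples to Gi/o, was at 0.885 CPM per kb against 0.072 for Chrm3, both under the filter.

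**Figure D3:**
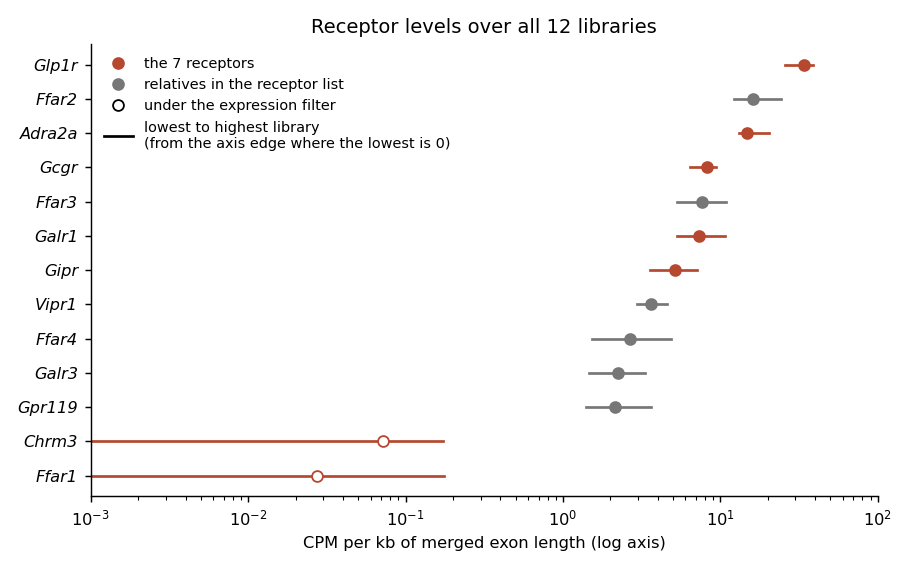
Levels of the 7 receptors and of the 6 listed relatives that passed the expression filter, as CPM per kb of merged exon length on a log axis. Points are means of 12 libraries and lines run from the lowest library (the axis edge where it is 0) to the highest; open points are the 2 receptors under that filter. Glp1r is at 33.9 CPM per kb, Ffar2 at 16.2, and Ffar1 at 0.027.

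None of the tested relatives passed the threshold between the groups. Of the 6 tested, 0 passed (edgeR, with 0 at an unadjusted p under 0.05, and 0 in DESeq2), 1 lay above 0 and 5 below, and the median log2 fold change was -0.21. Those with the smallest p were Ffar3 and Ffar2. Ffar3 averaged 12.9 ± 2.40 CPM in KO islets against 15.5 ± 2.90 CPM in controls (SD, n = 6 each), -0.27 ± 0.15 on the log2 scale (adjusted p = 0.682, edgeR). Ffar2 averaged 42.7 ± 5.23 CPM in KO islets against 47.6 ± 10.96 CPM in controls, -0.16 ± 0.11 on the log2 scale (adjusted p = 0.781, edgeR). The median is over the few relatives that passed the filter and is not evidence of a shift.

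The wider signalling lists held no call either, where 0.124% of all tested genes were called and 7.91% had an unadjusted p under 0.05. Of 16 tested receptors known from islets outside these families, 0 passed (3 at an unadjusted p under 0.05; 0 in DESeq2), and their median was -0.10. The smallest p belonged to Lpar1, a lysophosphatidic acid receptor, with 6.72 ± 1.90 CPM in KO islets against 9.89 ± 1.16 CPM in controls (SD, n = 6 each) and a difference of -0.55 ± 0.18 on the log2 scale (adjusted p = 0.367, edgeR). Adora1, a Gi-coupled adenosine receptor, followed with -0.33 ± 0.12 (adjusted p = 0.415). On the ligand side, 0 of 10 tested genes passed (4 at an unadjusted p under 0.05; 0 in DESeq2), with a median of -0.01. Pcsk1, the convertase that can release GLP-1 from proglucagon, averaged 99.7 ± 10.2 CPM in KO islets against 84.7 ± 11.5 CPM in controls, 0.24 ± 0.09 on the log2 scale (adjusted p = 0.49996, edgeR).

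Of 53 listed G protein subunits and regulators, 38 passed the filter, as did 17 of 29 listed genes of the phospholipase C arm. Of 38 tested G protein subunits and regulators, 0 passed (3 at an unadjusted p under 0.05; 0 in DESeq2), with 14 above 0, 24 below and a median of -0.04. Gnas, which encodes the alpha subunit of Gs, was at 36.1 CPM per kb with a log2 fold change of -0.12 (adjusted p = 0.790, edgeR), and Gnai2, of the Gi class, was at 54.5 CPM per kb with -0.11 (adjusted p = 0.770). Gng4 and Gnaz, a gamma subunit and a Gi-class alpha subunit, had the smallest p in the list, both at -0.20 on the log2 scale (adjusted p = 0.541 for Gng4 and 0.594 for Gnaz, edgeR). Of 17 tested genes of the phospholipase C arm, 0 passed (2 at an unadjusted p under 0.05; 0 in DESeq2), with a median of -0.03. The kinase genes Prkce and Prkcb, members of the protein kinase C family, had the smallest p, at -0.23 ± 0.08 for Prkce and -0.17 ± 0.08 for Prkcb (adjusted p = 0.426 and 0.591, edgeR).

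**Figure D4:**
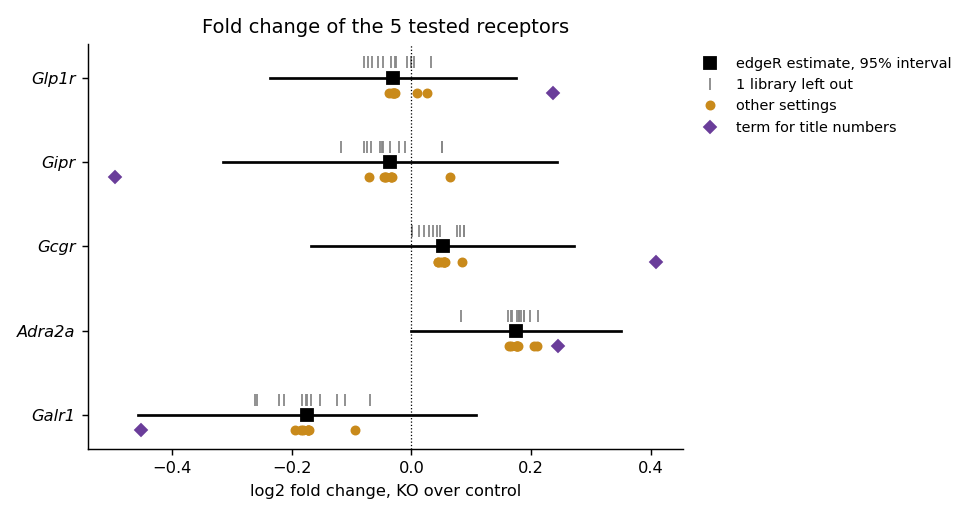
Log2 fold change, KO over control, of the 5 tested receptors. Squares and lines are the edgeR estimate and its 95% interval; ticks above are fits without 1 library, and circles and diamonds below are other settings, the diamond having a term for title numbers. Every interval includes 0, that of Adra2a just reaching it at -0.0007, and the fits with the title number term lie farthest from the estimates for Glp1r, Gipr, Gcgr and Galr1.

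Genes whose pattern over the 12 libraries lay closest to each receptor were found by the Pearson correlation of log2 CPM, given as a description of shared libraries only. They were Itsn1 (0.93) and Urgcp (0.86) for Glp1r, Nr1d2 (0.92) and Pik3ca (0.86) for Gipr, and Efnb1 (0.88) for Gcgr. For Adra2a they were 1700037H04Rik (0.88) and Map2 (0.87), and for Galr1 Gadd45g (0.82) and Fam167b (0.81). No receptor was among these for another receptor. The highest value between 2 receptors was 0.39, for Gcgr and Adra2a, where Adra2a ranked 1170 among the tested genes by likeness to Gcgr.

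The title numbers of the libraries, whose meaning no source used here gives, run with genotype. All KO libraries and control replicate 1 have numbers up to 706, and the other 5 controls have numbers from 805, so the higher range holds no KO library and a difference within it cannot be formed. With a term for this split, the comparison of the receptors rests on control replicate 1 alone. The log2 fold changes were then 0.24 ± 0.18 for Glp1r, -0.49 ± 0.23 for Gipr, 0.41 ± 0.22 for Gcgr, 0.25 ± 0.17 for Adra2a and -0.45 ± 0.26 for Galr1 (SE; adjusted p from 0.883 to 0.942, edgeR). The errors were larger than without the term for all 5, and title number and genotype cannot be told apart in these libraries.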

How the data were processed

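The authors deposited 1 table with raw counts per gene for 12 islet libraries, their normalized signal (the count divided by 1 factor per library, 0.662 to 1.35), and a log2 fold change and unadjusted p-value from DESeq2, per the file headers. The submitters' processing notes name TopHat2, HTSeq, DESeq2 1.4.5 and build mm9, but not their roles. Strandedness and annotation are not given in the sources used here. Of 23366 rows, 27 whose names had become dates (0.0447% of counts) were left out.

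Raw counts were tested with edgeR 4.0.16 (R 4.3.3): TMM, default filter (minimum count 10, total 15), no covariate, threshold 0.05 on the adjusted p. Intervals use the test's degrees of freedom. The 2 receptors under the filter had exact permutation tests over 924 splits. DESeq2 1.42.0 was an alternative. GENCODE M21 (GRCm38) gave lengths and 3′ UTRs, without coordinates, because the build differs. The fit was tested on simulated data. Counts between any 2 of the 66 library pairs differed beyond sampling noise (lowest chi-square per gene 1.97). Named genes were the 7 receptors, the called or else 2 smallest-p genes of each list, and the 2 closest patterns per tested receptor, of which 1 is not reported here; Gnas, Gnai2 and the relatives given by level were named after their values were seen. Receptors and lists were chosen with earlier results of these data known.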

Additional observations from a re-analysis of the deposited data

Results flagged for a closer look

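Of 14 sets of 6 values, each receptor in KO or in control libraries, 3 had a sample whose gap to its nearest neighbour exceeded Dixon's 95% critical value as a share of the range, which chance does in about 1 of 20 sets. Adra2a stood at 97.9 CPM in KO replicate 1, against 65.9 to 74.8 CPM in the other KO libraries. Gipr stood at 24.9 CPM in control replicate 1, a library of high acinar share, against 15.9 to 18.1 CPM in the other controls. Ffar1 stood at 0.21 CPM in control replicate 4, which is 1 count against 0 in the other controls, where any single count gives the widest possible gap, so that the chance rate does not apply to it. The causes were not tested.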

How the results depend on the processing

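All 9 other settings and the 12 fits that left out 1 library called 0 receptors, as did the fit reported above. Signs of small differences turned: Glp1r had a log2 fold change of 0.0257 with the acinar covariate, 0.2358 with the title number term and 0.0090 without the 3 libraries of high acinar share, where Gipr had 0.0652. Chrm3 differed by -0.01318 CPM with plain library totals. Leaving out 1 library gave -0.0786 to 0.0323 for Glp1r, -0.1173 to 0.0518 for Gipr, 0.0015 to 0.0884 for Gcgr, 0.0829 to 0.2109 for Adra2a and -0.2621 to -0.0685 for Galr1 on the log2 scale, and CPM differences of 0.04996 to 0.1958 for Ffar1 and -0.1139 to 0.1268 for Chrm3. Gcgr, Adra2a and Galr1 kept their sign in all of these. Over all genes, 12 passed in edgeR, 28 in DESeq2, 26 without insulin and acinar genes, 22 with no count filter, 19 with a mean of at least 20 counts, 34 with the acinar covariate, 30 without the 3 libraries of high acinar share, and 0 with the title number term (530 at an unadjusted p under 0.05). Leaving out 1 library gave 5 (without KO replicate 1) to 17 (without control replicate 1), with 6 and 7 without KO replicate 4 and control replicate 5. The cause of these changes was not tested. With the replicate number as a block 14 genes and 0 receptors passed. KO and control libraries of the same replicate number were not alike. Correlations of their deviations ran from -0.11 to 0.05, with 0 of 6 KO libraries closest to their own number. Low correlations cannot show that the libraries were unpaired, and other ways of pairing were not tested. Summed over all libraries of a group, Ffar1 had 4 counts in KO and 1 in control, and Chrm3 had 12 and 10. Counting error is therefore wide for both.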

Other observations

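The somatostatin receptor Sstr3 was at 23.8 CPM per kb over the 12 libraries, between Glp1r and Ffar2, whereas Sstr1 was at 0.397 and Sstr2 at 0.038, and Sstr4 and Sstr5 had 0 counts. The purinergic receptor P2ry1 was at 6.55 CPM per kb, the adenosine receptor Adora1 at 4.15 and the GABA-B receptor subunit Gabbr1 at 2.99, while its partner Gabbr2 was at 0.014.

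A ratio within each library does not depend on library scaling. Summed counts of the Gi/o-coupled Adra2a and Galr1 per count of the Gs-coupled Glp1r, Gipr and Gcgr were 0.409 ± 0.050 in KO and 0.380 ± 0.038 in control islets (SD, n = 6 each). The difference of 0.029 did not pass (two-sided exact permutation p = 0.292), with 4 of 6 KO values above the mean of the controls. The sums are not scaled for gene length. Over all 12 libraries Glp1r had 8993 counts, against 803 for Gipr and 984 for Gcgr. Adra2a had 3208, against 969 for Galr1. The summed ratio therefore mainly reflects Adra2a and Glp1r. This ratio was chosen after the data were seen. Leaving out 1 library gave 0.01497 to 0.04071, and leaving out the 3 libraries of high acinar share gave 0.029 (exact permutation p = 0.262). The ratio of Adra2a to Glp1r alone was also chosen after the data were seen. Adra2a per count of Glp1r was 0.388 ± 0.058 in KO and 0.338 ± 0.035 in control islets (exact permutation p = 0.110).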
